A study of Mus musculus with 2 samples.

Results

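Isl1 peaks at the SoxE and SoxF genes were taken from the peak list of a chromatin immunoprecipitation sequencing (ChIP-Seq) experiment on mouse embryos. The genes were Sox8, Sox9 and Sox10 (SoxE) and Sox7, Sox17 and Sox18 (SoxF), and a peak was counted for a gene when the list named that gene as the one with the closest transcription start site (TSS). Of the 48295 peaks in the list, 5 carried the name of a SoxE or SoxF gene, 2 for SoxE and 3 for SoxF. Cardiogenic mesoderm and heart regions of C57BL/6 embryos at E8.25-E9 were pooled from around 60 to 80 embryos and precipitated with a monoclonal antibody against Isl1. All embryos were of this strain, no genotype or treatment was compared, and input chromatin was not analysed here. The list was deposited for 1 ChIP sample without peak heights, p-values or read numbers, so the depth behind each peak is unknown, peaks could not be ranked by strength, and no replicate check of a single peak was possible.

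Isl1 is a LIM-homeodomain transcription factor that marks cardiac progenitor cells of the pharyngeal mesoderm, and LIM-homeodomain proteins recognise DNA with a TAAT core. Sox proteins bind DNA through a high mobility group box. SoxE factors act in neural crest, cartilage, gonad and the mesenchyme of heart valves: Sox9 is needed for cartilage formation and for the endocardial cushions that form the valves, Sox10 for neural crest derivatives such as melanocytes and glia, and Sox8 overlaps with both. SoxF factors act in endothelium: Sox7, Sox17 and Sox18 take part in blood and lymphatic vessel formation, and Sox17 is also a regulator of definitive endoderm. The pooled tissue holds several cell types, and a peak list does not tell in which of them a site was bound.

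The sequence under the peaks is shown first, because long simple repeats were its most visible feature at SoxE and SoxF genes. Each line gives, for 4 of the 5 member peaks and 3 peaks beside them, 200 bases around the midpoint of a peak on the forward strand of mm9. Capitals mark the longest uninterrupted run of purines or of pyrimidines. In the Sox8 peak, which had no such run of at least 25 bases, they mark the longest stretch made only of A and C. The last 3 peaks were assigned to other genes in the list, and are shown because they are the closest peaks on the remaining side of Sox9 and on both sides of Sox10. They were chosen after their positions had been seen.
Sox8 peak (chr17:25702003-25702202): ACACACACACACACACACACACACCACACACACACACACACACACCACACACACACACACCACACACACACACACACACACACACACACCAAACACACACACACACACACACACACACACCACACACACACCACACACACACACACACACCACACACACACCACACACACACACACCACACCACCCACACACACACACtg
Sox9 peak (chr11:112630402-112630601): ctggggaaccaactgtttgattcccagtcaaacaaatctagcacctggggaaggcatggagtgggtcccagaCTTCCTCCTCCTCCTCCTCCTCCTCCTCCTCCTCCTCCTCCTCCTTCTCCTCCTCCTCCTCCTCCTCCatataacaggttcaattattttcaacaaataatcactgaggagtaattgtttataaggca
Sox17 near peak (chr1:4521042-4521241): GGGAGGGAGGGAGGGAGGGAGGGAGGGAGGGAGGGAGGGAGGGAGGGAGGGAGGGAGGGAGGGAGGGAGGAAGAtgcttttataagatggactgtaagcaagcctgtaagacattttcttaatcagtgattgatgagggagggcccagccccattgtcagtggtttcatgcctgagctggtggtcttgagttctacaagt
Sox17 far peak (chr1:4618509-4618708): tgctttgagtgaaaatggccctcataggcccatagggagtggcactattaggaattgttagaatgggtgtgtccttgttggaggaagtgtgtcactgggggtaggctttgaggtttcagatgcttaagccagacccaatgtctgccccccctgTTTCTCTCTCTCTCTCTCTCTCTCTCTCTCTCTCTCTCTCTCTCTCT
Gm11681 peak beside Sox9 (chr11:112655675-112655874): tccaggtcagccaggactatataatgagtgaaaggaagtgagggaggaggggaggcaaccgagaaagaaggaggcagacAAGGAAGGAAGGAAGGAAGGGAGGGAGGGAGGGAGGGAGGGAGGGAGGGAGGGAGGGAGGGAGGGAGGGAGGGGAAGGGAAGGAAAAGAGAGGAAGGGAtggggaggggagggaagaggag
Gm10863 peak beside Sox10 (chr15:79005292-79005491): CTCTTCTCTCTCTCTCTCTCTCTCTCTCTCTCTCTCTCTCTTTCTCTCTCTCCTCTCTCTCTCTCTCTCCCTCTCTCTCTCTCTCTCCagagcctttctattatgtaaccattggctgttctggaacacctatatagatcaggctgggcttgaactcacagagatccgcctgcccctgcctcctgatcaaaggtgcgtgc
Polr2f peak beside Sox10 (chr15:78975891-78976090): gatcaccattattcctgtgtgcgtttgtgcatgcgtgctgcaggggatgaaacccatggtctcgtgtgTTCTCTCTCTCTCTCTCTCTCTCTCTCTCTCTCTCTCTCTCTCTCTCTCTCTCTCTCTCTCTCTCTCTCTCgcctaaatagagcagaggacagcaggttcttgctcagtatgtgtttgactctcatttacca

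Among the SoxE genes, Sox8 and Sox9 had 1 peak each and Sox10 had 0. The Sox8 peak, on chromosome 17, spanned 25701818 to 25702387, and its midpoint was 5.53 kb downstream of the gene start. The gene itself is short, from 25702837 to 25707631 on the reverse strand, so the peak sat in intergenic sequence 0.45 kb past its 3′ end. It was 569 bp wide, wider than 73.7% of all peaks. Sox9 is transcribed from the forward strand of chromosome 11, from 112643538 to 112649074. Its peak lay from 112630187 to 112630816, 13.0 kb upstream, in an intron of the long noncoding transcript BC006965 in the GENCODE annotation. With 629 bp it was the widest of the 5 peaks and wider than 83.3% of the list.

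Among the SoxF genes, Sox17 had 2 peaks, Sox7 had 1 and Sox18 had 0. Sox7, on the forward strand of chromosome 14 from 64562511 to 64569569, had the peak closest to a TSS of all members. It was located in intergenic sequence 2.22 kb upstream and was 360 bp wide. Both Sox17 peaks were intergenic and upstream of the gene, which lies on the reverse strand of chromosome 1 from 4481009 to 4486494. The near peak, from 4520965 to 4521318, was 33.7 kb from the TSS and 353 bp wide, the narrowest of the members. The far peak, from 4618366 to 4618851, was 131.2 kb away and 485 bp wide. The distances are those of the list, whose TSS differed from the GENCODE start by 941 bp for Sox17 and by at most 32 bp for Sox7, Sox8 and Sox9.

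The members therefore had a peak at 4 of 6 genes (66.7%, 95% Wilson interval 30.0 to 90.3%). Of 22208 protein-coding gene names in the annotation, 45.6% were named in the list, a share that misses genes whose symbols differ between the sources. Within 10 kb of the TSS, Sox7 and Sox8 had a peak, 2 of 6 genes, against 22.6% of all names. The interval for the members covers the background, and it covers counting error only. Upstream of the TSS lay 4 of the 5 peaks (80.0%, interval 37.6 to 96.4%), 2 of them at Sox17, against 47.5% of all peaks, a share within that interval. The median width of the 5 peaks was 485 bp, with a range of 353 to 629 bp, beside a median of 466 bp over the list.

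**Figure D1:**
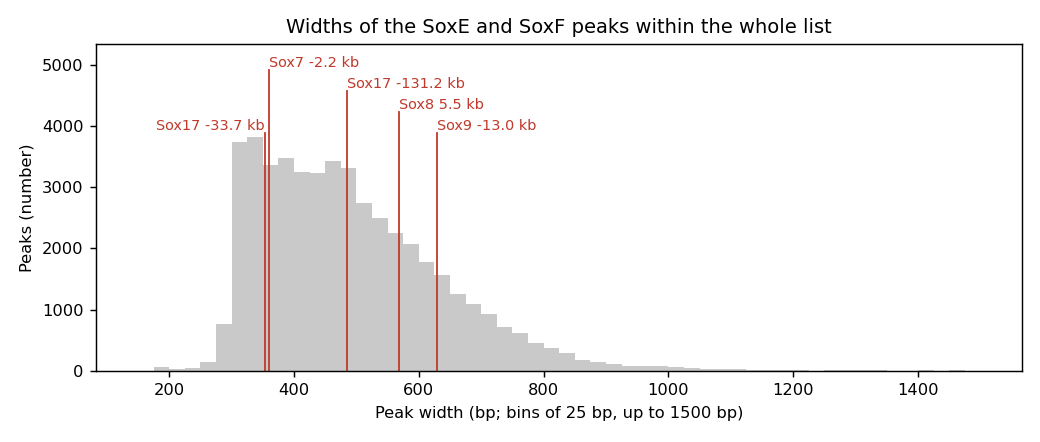
Widths of the 5 SoxE and SoxF peaks (red lines, with the gene and the distance to the TSS in kb, negative upstream) over the widths of all peaks (grey bars, number of peaks per bin of 25 bp, x axis in bp). The members lie between 353 and 629 bp, within the bulk of the list.

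The name of the closest gene gave only part of the picture, most of all at Sox9. Within 500 kb of the Sox9 TSS lay 27 peaks, 14 upstream and 13 downstream, more than around 90.2% of the 22335 protein-coding genes in the annotation, where the median was 17. Of these 27 peaks, 13 were named for BC006965, 6 for 1700012H19Rik, 5 for 2610035D17Rik, and 1 each for Sox9, Gm11681 and 4732490B19Rik. BC006965, 1700012H19Rik and 2610035D17Rik begin 70.9 kb upstream, 42.9 kb downstream and 419.6 kb downstream of the Sox9 start, as computed from the distances in the list. When each peak was given to the nearest protein-coding start in GENCODE, in which these 3 transcripts are not such a start, Sox9 had 18 peaks in place of 1. The next protein-coding start was 350.6 kb upstream (Gm11678) and 783.5 kb downstream (Slc39a11). The sequence closer to Sox9 than to any other protein-coding start, called its territory below, came to 568.3 kb, and the 18 peaks gave 31.7 peaks per Mb. This density was above that of 81.6% of protein-coding genes, whose median was 10.1 peaks per Mb. Genes with no peak in their territory are part of such ranks. Over the whole genome there were 18.2 peaks per Mb. The peak closest to Sox9 was not the upstream peak that bears its name but the one named for Gm11681, 12.2 kb downstream, from 112655565 to 112655984 in an intron of that noncoding gene.

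**Figure D2:**
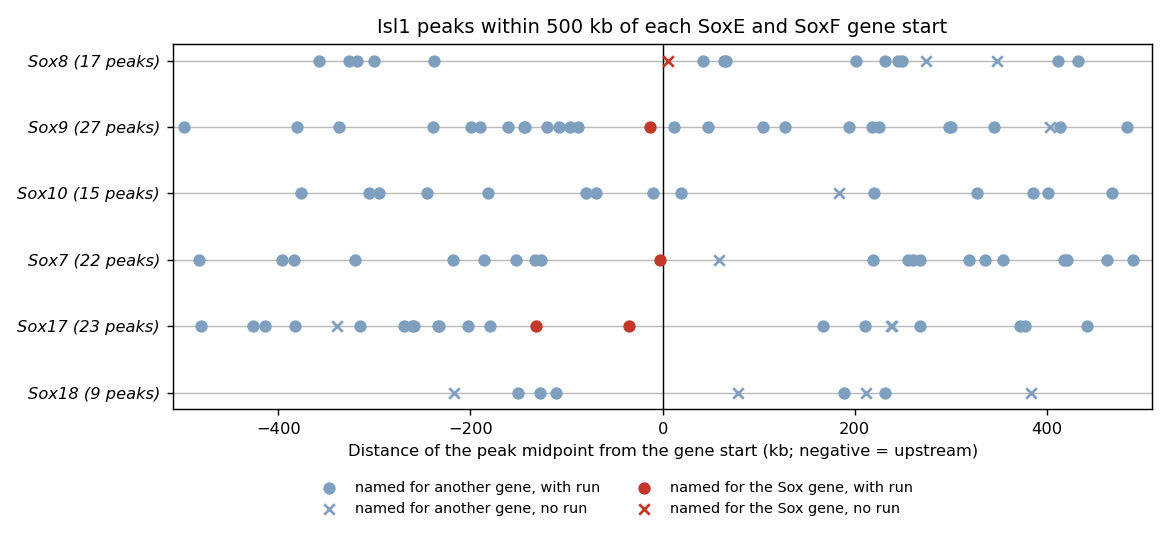
Isl1 peaks within 500 kb of each SoxE and SoxF gene start (x axis, distance of the peak midpoint in kb, negative upstream, in the direction of transcription). Red marks are peaks named for the Sox gene and blue marks peaks named for another gene, with circles for peaks with 25 or more purines or pyrimidines in a row and crosses for peaks without one. Sox9 has 27 peaks on both sides, and the 9 peaks around Sox18 leave its surroundings empty up to 79.0 kb.

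Sox10 had no peak by name although 2 peaks lay close to it. The gene spans chromosome 15 from 78985343 to 78994920 on the reverse strand. A peak of 446 bp, from 79005168 to 79005614, was located 10.5 kb upstream in an intron of the noncoding gene Gm10863, for which it was named. A peak of 326 bp, from 78975827 to 78976153, was located 18.9 kb downstream of the TSS and 9.19 kb past the 3′ end, in an intron of Polr2f, an RNA polymerase subunit gene whose TSS was closer. By the closest protein-coding TSS, the Gm10863 peak went to Sox10, which then had 1 peak in a territory of 43.9 kb, bordered by Pick1 at 64.7 kb upstream and Polr2f at 23.1 kb downstream. This gave 22.8 peaks per Mb, above 70.8% of genes. Around Sox8, the peaks nearest after its own were 3 peaks named for Sstr5, a somatostatin receptor gene, at 42.2, 63.5 and 66.3 kb downstream. The territory of Sox8, 41.2 kb between Lmf1 at 8.49 kb upstream and Sstr5 at 73.4 kb downstream, held its 1 named peak. Its density was 24.3 peaks per Mb, above that of 73.0% of genes. Sox8 and Sox10 had 17 and 15 peaks within 500 kb, near the median of all genes, and 4 peaks each within 100 kb, where the median was 3.

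Among the SoxF genes, Sox7 and Sox17 had 22 and 23 peaks within 500 kb, above 73.2% and 77.7% of genes. Within 100 kb there were 2 peaks for Sox7 and 1 for Sox17, where the median was 3. The Sox17 territory of 212.7 kb, between Mrpl15 at 289.3 kb upstream and Rp1 at 136.0 kb downstream, held its 2 named peaks. Their density of 9.40 per Mb was above that of 49.2% of genes. Such ranks place genes without a peak below any gene with one, and 54.8% of gene names had at least 1. Among genes with a peak, the Sox17 density therefore ranked low. The territory of Sox7 came to 63.7 kb with 1 peak, or 15.7 per Mb, above 58.5% of genes. It was bordered by Pinx1 at 83.4 kb upstream and 4930578I06Rik at 44.1 kb downstream. Sox18 lies on chromosome 2 from 181404541 to 181406345 on the reverse strand, in a territory of 39.5 kb without any peak, between Tcea2 at 8.67 kb upstream and Prpf6 at 70.3 kb downstream. Its closest peak lay 79.0 kb downstream over an exon of Zfp512b, and 90.6% of protein-coding genes had a peak nearer to their start. The assembly of chromosome 2 ends 341.7 kb upstream of Sox18, so its window of 500 kb to either side was cut to 0.842 Mb. The 9 peaks in it gave 10.7 peaks per Mb, above 10.3% of all protein-coding genes. The windows of those genes were likewise cut only where a chromosome ended. At most 1 peak within 100 kb, as at Sox17 and Sox18, was found for 18.5% of all genes. A list without read numbers does not show whether weaker binding fell below the threshold of the peak caller there.

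Low-complexity sequence was present under most member peaks, as under most peaks of the list. The longest row of purines or pyrimidines within these windows of 200 bases had a median of 68 bases at the members and 92 over all peaks. Within 100 bp of the midpoint, 4 of the 5 member peaks held 25 or more purines or pyrimidines in a row, called a run below (80.0%, 95% Wilson interval 37.6 to 96.4%), against 94.1% of all peaks and 3.93% of windows of the same size 1 kb to either side of the peaks. The near Sox17 peak had 74 bases of repeated GGGA and the far peak had 47 bases of alternating CT, which continued to 67 bases in the whole peak. The Sox9 run of 68 bases was built of CCT triplets. A CT or GA repeat of at least 4 units was in 1 of the 5 member windows (20.0%, interval 3.62 to 62.4%), against 56.1% of all peaks. Within 500 kb of a member start it was at 50 of 113 peaks (44.2%, interval 35.4 to 53.4%). The Sox8 peak alone held no run, with a longest run of 3 bases in the window and 12 in the whole peak. Instead, 198 of its 200 bases formed 1 stretch of A and C only. Such a stretch of at least 25 bases was present at 19.8% of the 2858 peaks in the list that had no run. The criterion was set after the Sox8 sequence had been seen, and with it all 5 member peaks held low-complexity sequence, beside 95.3% of all peaks. The 3 peaks closest to Sox9 and Sox10 under other names held runs of 99, 88 and 71 bases. Whether Isl1 or the sequence itself brought these fragments into the library was not tested.

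Motifs were searched on both strands of the same windows. TAAT was present in the Sox7, Sox9 and both Sox17 windows and absent from the Sox8 window, 4 of 5 peaks (80.0%, interval 37.6 to 96.4%). It was found in 35.3% of all peaks and in 73.4% of windows 1 kb away. The Sox9 window had 3 occurrences, and the other windows with the motif had 1 each. Every motif searched here mixes purines and pyrimidines, so none can lie inside a run. A run thus leaves less of a window for a match. The shares in peaks and in windows 1 kb away were not adjusted for this. The longer form CTAATG, which contains TAAT, was in none of the 5 windows, in 2.64% of all peaks and in 8.04% of windows 1 kb away. AACAAT, a core bound by Sox proteins, was present in the Sox9 window, where it overlapped a TAAT, and in the far Sox17 window, and in 4.57% of all peaks and 13.8% of windows 1 kb away. AACAAAG, also a Sox core, and GATAA, the GATA core, were in none of the 5, beside 2.79% and 11.6% of all peaks and 5.67% and 29.8% of windows 1 kb away. CATCTG, an E-box, was in the Sox7 window and the far Sox17 window, and in 4.99% of all peaks and 14.9% of windows 1 kb away. These are matches of letters in the reference genome and with 5 windows a share has a wide interval.

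Over all peaks within 500 kb, those around SoxE and SoxF genes could be compared in larger numbers. Runs were present at 54 of 59 peaks around SoxE genes (91.5%, 95% Wilson interval 81.6 to 96.3%) and at 46 of 54 around SoxF genes (85.2%, interval 73.4 to 92.3%). The share over all peaks, 94.1%, lies within the SoxE interval and above the SoxF interval, while the intervals of both groups overlap. Within SoxF the count was 21 of 22 around Sox7, 20 of 23 around Sox17 and 5 of 9 around Sox18. Each group pools the peaks around 3 genes. Peaks around the same gene are not independent, and the intervals cover counting error only. TAAT was present at 28 of 59 (47.5%, interval 35.3 to 60.0%) and 17 of 54 (31.5%, interval 20.7 to 44.7%), and both intervals overlap. The share over all peaks, 35.3%, lies at the lower bound of the SoxE interval and within the SoxF interval. Peaks without a run were most frequent around Sox18, where 5 of 9 peaks held one (55.6%, interval 26.7 to 81.1%). Of the 4 others, the peaks at Zfp512b, Zbtb46 and Gmeb2 overlapped exons and had GC contents of 83.0, 84.0 and 80.0% in their windows. In the list as a whole, 24.9% of peaks without a run had a GC content above 70%. Around Sox9, 26 of 27 peaks held a run (96.3%, interval 81.7 to 99.3%).

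The number of runs on offer also varied between the genes. The genome held 176892 runs of at least 50 bases, of which 53756 (30.4%) had their midpoint under an Isl1 peak. Within 500 kb of Sox9 there were 107 such runs, more than around 98.1% of genes, and 32 of them (29.9%, 95% Wilson interval 22.1 to 39.2%) lay under a peak. Peaks and runs were both numerous around Sox9, and the share was near that of the genome. Around Sox17 there were 59 runs, fewer than the median of 69, of which 27 (45.8%, interval 33.7 to 58.3%) lay under a peak, a share above that of 98.1% of genes. Around Sox18, in its shorter window, 47 runs were present and 6 lay under a peak (12.8%, interval 5.98 to 25.2%), a share above that of 2.49% of genes. None of the 4 runs within 50 kb of Sox18 was covered, against 4 of 11 at Sox9, 2 of 8 at Sox10, 1 of 10 at Sox8, 1 of 7 at Sox17 and 1 of 4 at Sox7. Sox7 with 22 of 73 runs (30.1%) was near the genome value, and Sox8 with 14 of 76 (18.4%) and Sox10 with 13 of 62 (21.0%) were below it. Runs on the same chromosome are not independent of each other, and the intervals cover counting error only.

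**Figure D3:**
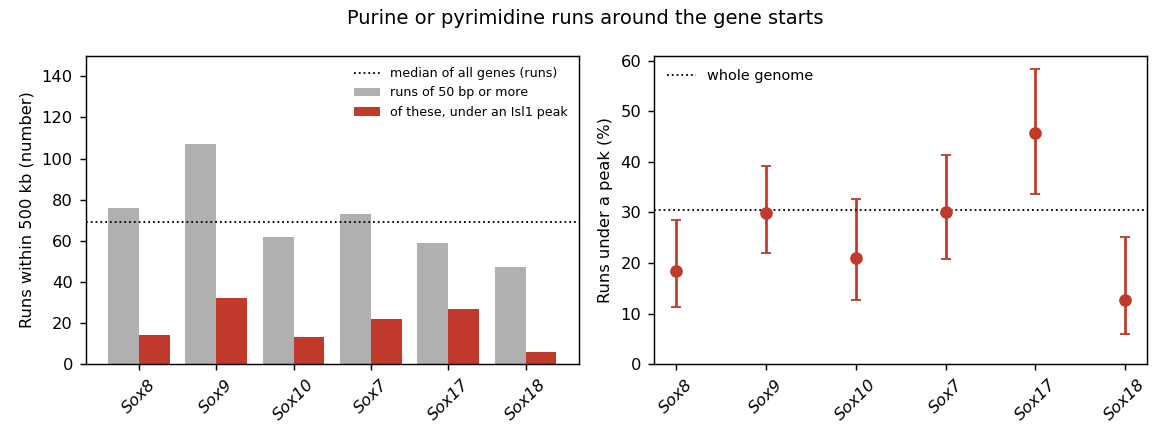
Purine or pyrimidine runs of at least 50 bases within 500 kb of each gene start. Left, number of runs (grey) and of runs under an Isl1 peak (red), with the median number of runs over all genes as a dotted line; right, share of runs under a peak in percent with 95% Wilson intervals and the genome value of 30.4% as a dotted line, with Sox17 at 45.8% and Sox18 at 12.8%.

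The SoxE and SoxF genes were set beside a list of other genes of the Sox family. The 13 other Sox genes in it carried 82 peaks, with a median of 3 per gene against 1 for the members, and 11 of the 13 had a peak. Sox11, a SoxC factor of neural progenitors, had the most, with 25 peaks, and Sox30, a factor of male germ cells, had the closest, 0.208 kb downstream of its TSS. Sox12 and Sox15 had 0 peaks, and Sox2, Sox14, Sox21 and Sox30 had 1 or 2, as the members with a peak did. The territories of Sox12 and Sox15 were 19.2 and 14.8 kb, whereas that of Sox11 was 693.4 kb. Sox2, with 1 peak by name, had a territory of 836.5 kb. The median territory was 53.8 kb for the members and 340.7 kb for the 12 other Sox genes found in GENCODE, and the median density was 19.2 against 20.4 peaks per Mb. As for Sox9, the count moved with the assignment for Sox2, from 1 to 17 peaks, and for Sox4, from 3 to 23, both chosen after their values were seen. At least 1 peak by the closest protein-coding TSS was found at 54.8% of all gene names, and at 5 of the 6 members, all except Sox18.

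**Figure D4:**
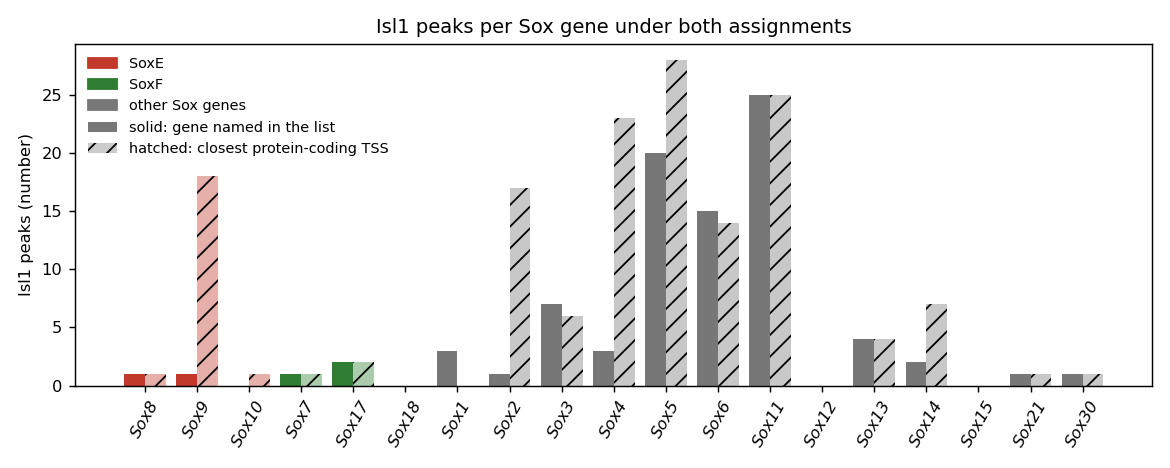
Number of Isl1 peaks (y axis) per Sox gene, for SoxE (red), SoxF (green) and other Sox genes (grey). Solid bars count peaks by the gene named in the list and hatched bars by the closest protein-coding TSS of GENCODE, which has no bar for Sox1 because that name was not matched; Sox9 moves from 1 to 18 peaks, while Sox11 has 25 under both.

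Genes that act beside SoxE and SoxF factors were counted in the same way. Of 16 neural crest factors, 14 had a peak, with 79 peaks in all. Mitf, the melanocyte regulator, had the most with 14 peaks, and the closest peak was that of Zic1, at -0.318 kb, upstream. Snai2 and Erbb3 had 0 peaks. Of 10 valve and cushion genes, 9 had a peak, with 36 peaks in all. Has2, which makes the hyaluronan of cardiac jelly, had the most with 10, the closest was at the proteoglycan gene Vcan, at -8.06 kb, and the tendon and valve factor Scx had 0. Of 18 endothelial genes, 15 had a peak, with 102 peaks in all. Nr2f2, a regulator of venous identity, had both the most peaks, 25, and the closest, at -0.64 kb. The receptor genes Tie1 and Notch1 and the cofactor gene Lmo2 had 0. Within 10 kb of the TSS, where 22.6% of all gene names had a peak, 11 of the 18 endothelial genes had one (61.1%, 95% Wilson interval 38.6 to 79.7%). The count was 4 of 16 for neural crest factors (25%, interval 10.2 to 49.5%) and 1 of 10 for valve genes (10.0%, interval 1.79 to 40.4%), and both intervals cover the share of all names. For the other Sox genes it was 6 of 13 (46.2%, interval 23.2 to 70.9%), an interval that also lies above this share. The lists were chosen with earlier results of these data known. Twist1 and Msx1 stand in both the neural crest and the valve list. The genes of all 3 lists had wider territories than the median gene, 158.0, 209.7 and 121.2 kb in the median against 46.6 kb. The shares with a peak at any distance were 87.5% (95% Wilson interval 64.0 to 96.5%), 90.0% (59.6 to 98.2%) and 83.3% (60.8 to 94.2%), beside 45.6% of all gene names, and are not corrected for territory.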

How the data were processed

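Isl1 binding was measured by ChIP-Seq in 1 sample of pooled embryonic heart regions. Per the methods and the labels, the authors aligned reads against mm9 (bowtie2), discarded PCR duplicates (Picard 1.136 in the submitters' processing notes), used MACS as peak caller, dropped blacklisted regions and gave every peak the gene with the nearest start. In the deposited list, positions stand beside a signed distance score in bp, and no signal is given per peak. The methods describe intersecting replicates to find common binding areas, without saying whether this list is such an intersection. A header line inside the list was skipped. Whether positions count from 0 or 1 is not stated, and they are printed as deposited. Width was end minus start.

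Sequence came from NCBIM37, the same assembly as mm9, in windows of 200 bp around midpoints and at 1 kb to either side. A run of at least 50 bases counted as under a peak when its midpoint was. Gene starts, territories and exons came from GENCODE vM1, using protein-coding transcripts. RefSeq sequence tables, of another build, were not used. The sequence of the Sox7 peak is not reported here. In GENCODE all 6 members were found by name, 12 of 13 other Sox genes, 14 of 16 neural crest factors, and all 10 valve and 18 endothelial genes. Shares have 95% Wilson intervals, and no test between groups was made, since there was 1 list. All members are named, and of each gene list the gene with the most peaks and the gene with the closest peak. Genes bordering member territories are named too. Other names, such as genes near a member or without a peak, were chosen after their values were seen. The members, gene lists and settings were chosen with earlier results of these data known. Functions were tested on simulated data. Alternatives covered distance, width, assignment, run length and window. Scripts ran under Python 3.11.15 with pandas 2.3.3, numpy 2.4.6, matplotlib 3.10.9 and scipy 1.17.1.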

Additional observations from a re-analysis of the deposited data

How the results depend on the processing

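No paired analysis was possible because the list was deposited for 1 ChIP sample. For the same reason no replicate could be left out. Of 30 alternative summary values, 15 stayed within 1.5 times of the main count, density or median width, or within the 95% Wilson interval of the main share. With peaks within 10 kb of the TSS, SoxE genes had 1 peak and SoxF genes 1, at 2 genes. With peaks at least as wide as the median, SoxF genes had 1 peak. By the closest protein-coding TSS, SoxE genes had 20 peaks, 18 of them at Sox9 and 1 each at Sox8 and Sox10. This setting changed both the class of genes and the annotation, and the part of each was not tested. Counting every peak within 500 kb gave 59 peaks for SoxE and 54 for SoxF. Without peaks that held a run, SoxE genes had 1 peak and SoxF genes 0, at 1 gene.

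Counting stretches of A and C or of G and T as well, chosen after seeing the data, raised the share of member peaks with low-complexity sequence from 80.0% to 100%. Searching the whole peak raised the share of member peaks with TAAT from 80.0% to 100%. The share over all peaks is given only for windows of 200 bp, so this 100% has no background beside it. Over 500 kb to either side in place of the territory, the density became 15 peaks per Mb for Sox10, 23 for Sox17 and 10.7 for Sox18, and Sox7, Sox8 and Sox9 stayed within 1.5 times. The list gives no height, so a stricter peak threshold could be replaced only by width, and depth is unknown.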
